A study of Gallus gallus with 6 samples.

Results

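The abundant genes described here are those that supplied a large part of the messenger RNA of the laying magnum after its few dominant transcripts. They were selected by their share of the counts in the laying hens: a gene was a member if it held at least 0.02% of the library's summed counts in each of the 3 laying hens. Of the 19152 genes in the count table, 97 met this limit. Of these, 6 were excluded by identifier, among them ORM1 and CLU, which the authors also list as differentially expressed. Another 5 were excluded only because they are in the authors' list of differentially expressed genes (ATF4, AvBD11, DKK3, GPX3 and AVD). This left 86 members, all of which were among the 12499 genes with enough counts to be tested. Because the laying hens' own values and the authors' comparison of the same hens chose the members, every difference between the groups below is a description, and no test is read from it.

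The study sequenced magnum RNA of 3 laying and 3 non-laying Hy-Line white hens, 1 library per hen, with single-end reads of 76 bp. Laying hens were killed 3 h post-ovulation at an age of 35 weeks, and non-laying hens had an age of 35 to 60 weeks and, per the study's methods, came from several flocks and had a regressed oviduct and an inactive ovary. Age, flock and laying state therefore cannot be told apart. The labels name no genetic change and no agent in either group, and the libraries held 18840068 to 25763750 summed counts.

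The magnum is the longest segment of the hen's oviduct. Its tubular gland cells, under control of estrogen and progesterone, make the egg-white proteins and store them in granules until an egg passes. A cell that exports protein on this scale also needs ribosomes, mitochondria, chaperones of the endoplasmic reticulum and vesicle transport, and the wall of the tube adds smooth muscle, connective tissue and ciliated epithelium. In a bulk sample of such a tissue, fewer cells of a type and less RNA per cell cannot be told apart.

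None of the 86 members was paired with a gene symbol in the tables used here, which name 409 of the identifiers, and those names all belong to the authors' differentially expressed genes. Members are therefore given by Ensembl identifier, without a role. Gene lists for ribosomal proteins, translation factors, oxidative phosphorylation, endoplasmic reticulum folding and transport, cytoskeleton, matrix, metabolism and other functions had been drawn up by symbol, and 0 members could be assigned to any of them. Of the cell type markers, AVD (avidin, the biotin-binding protein of the egg white) was at 2000, 1610 and 838 CPM (counts scaled to a common library size) in laying hens 1, 2 and 3, compared with 2.26 to 3.03 CPM in the non-laying hens, with libraries scaled by edgeR's trimmed mean of M-values (TMM). The summed level of the stromal markers COL3A1, LUM and FBLN1 was 261 to 288 CPM in the laying hens and 1082 to 2075 CPM in the non-laying hens. PTPRC, carried by leukocytes, was at 3.68 to 5.75 and 12.1 to 34.1 CPM, and CCDC39, of motile cilia, at 2.96 to 9.69 and 18.1 to 33.0 CPM. Only 1 of 14 gland, 3 of 10 stromal, 1 of 13 immune and 1 of 10 cilia markers had a name. Smooth muscle, endothelium, red blood cells and luminal epithelium had none. AVD was near level over the non-laying hens by CPM only. By share of counts it held 0.000409%, 0.000269% and 0.00089% in non-laying hens 1, 2 and 3, from 93, 67 and 168 counts. The most abundant gene of the laying hens, ENSGALG00000012869, held 19.8%, 36.5% and 1.33% of counts in non-laying hens 1, 2 and 3. The 6 markers with a name moved with laying state, and all of them were picked as differentially expressed by the authors. Their part in the results below was not tested.

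Together the 86 members held 9.11%, 9.22% and 9.72% of all counts in laying hens 1, 2 and 3, which is 9.35% ± 0.326 (SD, n = 3). In non-laying hens 1, 2 and 3 the same genes held 14.1%, 12.6% and 14.1%, or 13.6% ± 0.853 (SD, n = 3). Every non-laying hen was thus above every laying hen. The share has to be read beside the 6 excluded genes, which took 74.8%, 68.9% and 69.9% in laying hens 1, 2 and 3 but 31.8%, 49.5% and 3.81% in non-laying hens 1, 2 and 3. Of all counts outside those 6 genes, the members held 36.1%, 29.6% and 32.3% in the laying hens and 20.6%, 25.0% and 14.7% in the non-laying hens. On this second scale the laying hens were the higher group without overlap, so the direction of the summed difference turned with the denominator. Per summed RPKM (counts corrected for gene length and library size), the members took 11.3% ± 0.702 in the laying hens and 18.1% ± 1.88 in the non-laying hens (SD, n = 3 each).

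**Figure D1:**
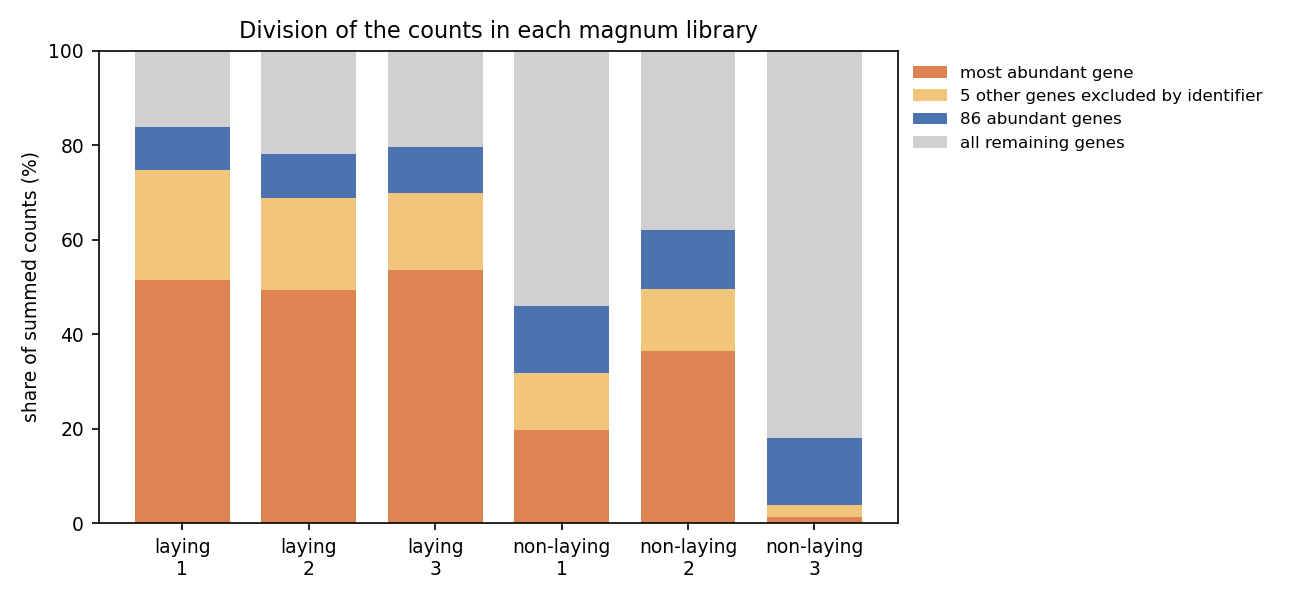
Share of the summed counts, in percent, taken in each hen by the most abundant gene, by the 5 other genes excluded by identifier, by the 86 abundant genes and by all remaining genes. The members' layer is between 9.11% and 9.72% in the laying hens and between 12.6% and 14.1% in the non-laying hens, while the most abundant gene is at 49.4% or more in the laying hens and at 1.33% in non-laying hen 3.

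The members ranged from 0.0212% to 1.07% in their mean share over the laying hens, with a median of 0.0431%. Most of them lay close to the limit, with 47 members under 0.05% and 21 at 0.1% or more. The 10 highest members held 51.8% of the members' sum in the laying hens. By the limit, the last members inside had a lowest laying share of 0.0201% (ENSGALG00000026445 and ENSGALG00000004295) and 0.0202% (ENSGALG00000000812). The first genes outside had 0.0199% (ENSGALG00000005425), 0.0197% (ENSGALG00000031120) and 0.0196% (ENSGALG00000008667), so the edge of the set was continuous. Gene lengths, as implied by counts and RPKM, ran from 135 to 6878 bases with a median of 1289 bases. The implied length differed by under 0.5% between libraries for 42 members, and for the rest it was not a fixed value over the hens.

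Most members also had a high share in the non-laying magnum. Of the 86 members, 82, 85 and 78 held at least 0.02% of the counts in non-laying hens 1, 2 and 3, and 78 did so in all of these hens, as did 1.52% of all genes. The number of genes of any kind at this level was 119, 176 and 160 in laying hens 1, 2 and 3, against 518, 331 and 812 in non-laying hens 1, 2 and 3. The members were thus part of a small set of abundant genes in the laying hens and of a larger one in the non-laying hens.

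On TMM-scaled libraries, for which the median log2 fold change of all genes was 0, 82 of the 86 members had a log2 fold change above 0 (laying over non-laying) and their median was 0.61. The values ran from -0.90 to 4.52. On total counts, where the median of all genes was -1.80, only 12 members were above 0 and the members' median was -1.11. On both scales 82 members were above the median of all genes. A change of library scaling shifts the log2 fold changes of all genes nearly alike, so this repeat is no agreement between independent scales. The rule's choice of high laying shares also favours values above the median. On log2 RPKM with 1 added, where the median of all genes was -1.15, only 51 members were above it. With 0.1 added, where that median was -1.52, 77 members were. Past the study's thresholds, a fold change over 3 and an adjusted p under 0.05 by edgeR's quasi-likelihood test, 1 member was called higher in the laying hens, where 1.28% of all tested genes were, and 0 members were called lower, where 3.7% of all tested genes were. At an unadjusted p under 0.05 there were 17 members, or 19.8%, beside 26.5% of all tested genes. DESeq2 called 5 members, or 5.81%, beside 7.44% of the genes to which it gave an adjusted p. Leaving out non-laying hen 2 gave 4 calls among the members and 639 among all genes, leaving out non-laying hen 3 gave 3 and 563, and leaving out any other hen gave 0 members beside 16 to 546 genes. The rule had removed the authors' differentially expressed genes, so nothing about the members is read from these counts.

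By share of counts, 5 members were higher in each laying hen than in any non-laying hen (0.464% of all tested genes were), and 58 were lower in each laying hen than in any non-laying hen (83% of all tested genes were). By TMM-scaled CPM these numbers were 35 members above, where all tested genes gave 15.1%, and 0 members below, where all tested genes gave 17.6%. By share of the counts outside the 6 excluded genes, 16 members were above, beside 4.45% of all tested genes, and 2 were below, beside 36.3% of all tested genes. The spread of these numbers over the scales shows how far a direction for a single member depended on the denominator.

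**Figure D2:**
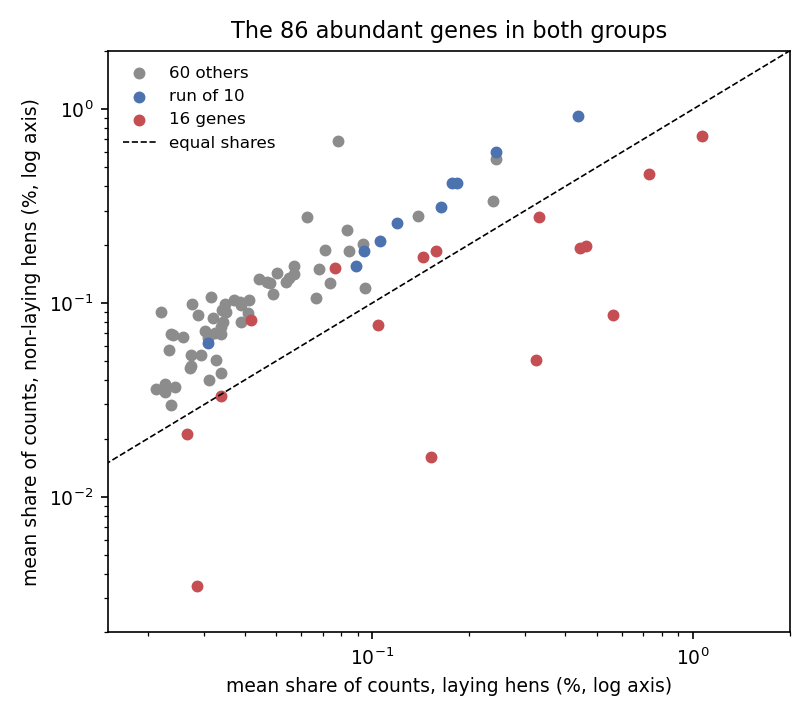
Mean share of counts in the non-laying hens (vertical axis) plotted over that in the laying hens (horizontal axis), in percent on log axes, with 1 point per member and a dashed line at equal shares. Of the 16 genes that were far lower in non-laying hen 3 than in hen 2, 12 lie under the line and 4 above it, while the run of 10 neighbouring genes and the 60 others all lie above it.

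The non-laying hens differed from each other in their share of ENSGALG00000012869, the most abundant gene, which held 19.8%, 36.5% and 1.33% of the counts in hens 1, 2 and 3. Among the members, 12 had shares in the same order (highest in hen 2, lowest in hen 3), as did 1.78% of all tested genes, while 47 members had the reverse order, as did 76.2% of all tested genes. On TMM-scaled CPM, 50 members followed the order of the most abundant gene, as did 22.1% of all tested genes. A fixed ratio of shares gave another set: 16 members had a share at least 3 times higher in non-laying hen 2 than in hen 3, where 1.08% of all tested genes did. These 16 genes had ratios of 3.52 to 39.4 with a median of 12.5, and the next member stood at 2.13. The ratio of 3 was chosen after the values were seen, and it divides the members into 16 genes that were far lower in non-laying hen 3 than in hen 2, a run of 10 neighbours in the table and 60 others.

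The 16 genes held 4.87%, 4.32% and 4.85% of all counts in laying hens 1, 2 and 3, against 3.20%, 4.62% and 0.366% in non-laying hens 1, 2 and 3. Non-laying hen 2 was within the range of the laying hens, and hen 3 was far under it. The low sum in hen 3 largely follows from picking these genes by the ratio of non-laying hen 2 to hen 3. That choice also lowers their non-laying mean and widens their contrast with the 60 others, so these sums are a description only. Outside the 6 excluded genes the 16 held 16.4% ± 2.74 in the laying hens and 4.74% ± 4.38 in the non-laying hens (SD, n = 3 each), and no non-laying hen reached the laying range. The 60 others had 10.5% ± 0.318 in the laying hens and 10.1% ± 0.635 in the non-laying hens on this scale. These means differed by less than the SD of the non-laying hens, and the groups overlapped. On all counts, by contrast, the 60 others held 3.02% ± 0.41 and 7.35% ± 2.75, highest at 10.2% in non-laying hen 3. The 16 genes supplied 7 of the 10 members with the highest mean laying share and 7 of the 10 with the highest mean laying RPKM.

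**Figure D3:**
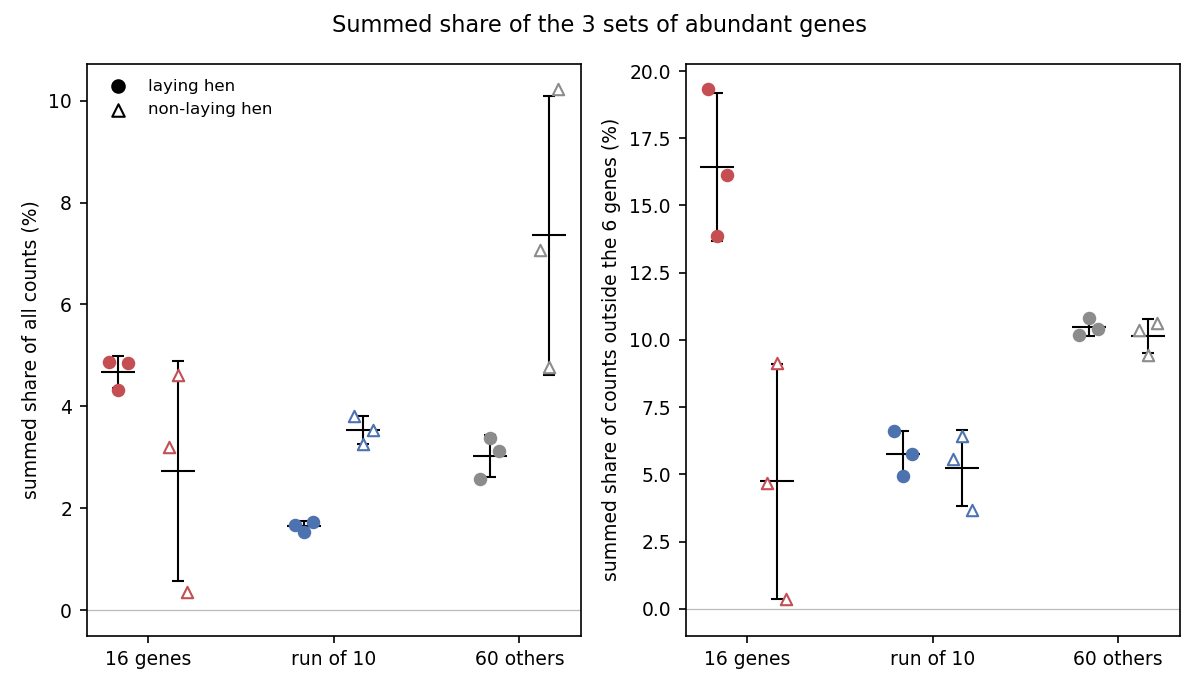
Summed share of the 16 genes, the run of 10 and the 60 others, as a percentage of all counts (left) and of the counts outside the 6 excluded genes (right), with filled circles for laying hens, open triangles for non-laying hens and bars for the mean and SD of 3 hens. On the right the 60 others lie at 9.43% to 10.8% in all 6 hens, whereas the 16 genes range from 0.38% in non-laying hen 3 to 19.3% in laying hen 1.

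The genes named singly from here on were chosen after their values were seen, apart from the pairs with the highest and lowest fold changes. Positions are on Galgal 5.0 and are those of the nearest differentially expressed genes of the authors on either side, since the rows of the count table follow chromosome and start for all 540 genes with coordinates. A member's chromosome is that of the genes on both sides. No role was assigned to a member from its position.

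The most abundant member, ENSGALG00000019551, stood in the row after ENSGALG00000012869 on chromosome 2, between SERPINB2 (67931644 to 67938135), a serpin family gene, and CDH20 (68849329 to 68961557), a cadherin. It held 1.29%, 1.29% and 0.612% of all counts in laying hens 1, 2 and 3, compared with 0.539%, 1.59% and 0.0414% in non-laying hens 1, 2 and 3. The groups overlapped, with the highest share of all in non-laying hen 2, which was 38.3 times that of hen 3. Its next neighbour, ENSGALG00000043252, was at 0.741%, 0.845% and 0.0965% in the laying hens and at 0.0155%, 0.237% and 0.00603% in the non-laying hens. Here laying hen 3 was 8.76 times lower than the highest laying hen and under non-laying hen 2. The log2 fold changes were 1.86 ± 1.29 and 3.92 ± 1.64 (SE) on TMM-scaled libraries. Counts of both genes were not whole numbers in 5 or 6 libraries, and their levels are uncertain where the authors' counting divided reads between genes.

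A second gene beside an excluded one was ENSGALG00000031496, in the row before ENSGALG00000003512 on chromosome 13, and before SOX30 (11311536 to 11318167), a transcription factor gene. Its shares were 0.471%, 0.333% and 0.168% in laying hens 1, 2 and 3, compared with 0.0181%, 0.123% and 0.0127% in non-laying hens 1, 2 and 3. The groups did not overlap, and the laying mean was 6.34 times the non-laying mean. ENSGALG00000003512 itself was also lowest in laying hen 3, at 5.14% against 8.80% in hen 2, and was at 0.816%, 3.26% and 0.129% in the non-laying hens. Both were highest in laying hen 1 and, of the non-laying hens, in hen 2.

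ENSGALG00000032737 had the highest log2 fold change of the members, 4.52 ± 1.24 (SE). It was at 0.143%, 0.185% and 0.129% of all counts in laying hens 1, 2 and 3, compared with 0.0139%, 0.0331% and 0.00104% in non-laying hens 1, 2 and 3. The groups did not overlap, and the mean share was 9.50-fold higher in the laying hens. It lay on chromosome 3, 19 rows before AvBD11 (107863811 to 107866429), an avian beta-defensin. ENSGALG00000032852, 16 rows before AvBD11, had a similar length (303 bases, against 348 bases) but another pattern. Its shares were 0.125%, 0.12% and 0.067% in the laying hens and 0.08%, 0.145% and 0.00557% in the non-laying hens, so that non-laying hen 2 exceeded every laying hen. AvBD11, which the rule removed, was at 0.116%, 0.141% and 0.111% in the laying hens and 0.0204%, 0.0334% and 0.0111% in the non-laying hens. The counts of ENSGALG00000032737 and ENSGALG00000032852 were not whole in 5 and 6 libraries.

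ENSGALG00000022586 had the second highest log2 fold change, 4.34 ± 1.09 (SE), and was the member past both thresholds. It was one of the rarer members, at 0.0322%, 0.0277% and 0.0254% of all counts in laying hens 1, 2 and 3. In non-laying hens 1, 2 and 3 it was at 0.00234%, 0.00755% and 0.000494%, the last from 93 counts with a 95% Wilson interval of 0.000403% to 0.000605%. This was the lowest count of any member in any hen, so counting error was small beside the differences between hens. The gene lay 3 rows before CCKBR on chromosome 1 (194457115 to 194459494), the gene of a cholecystokinin receptor. Its call was lost without any 1 of laying hens 1, 2 and 3 or non-laying hen 1, at log2 fold changes of 4.05, 4.45, 4.48 and 4.03.

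A pair of highly expressed genes completed the members above all non-laying hens by share. ENSGALG00000006717, on chromosome 5 between SLC22A18 and EFCAB4B, was at 0.451%, 0.529% and 0.406% in laying hens 1, 2 and 3, compared with 0.163%, 0.399% and 0.0253% in non-laying hens 1, 2 and 3. Its lowest laying hen and non-laying hen 2 were close to each other. ENSGALG00000010293, on chromosome 8 between KIF2C and ORC1, was at 0.551%, 0.341% and 0.441% in the laying hens and at 0.303%, 0.246% and 0.0281% in the non-laying hens. Here non-laying hens 1 and 2 were both near the laying range, and only hen 3 was far from it. Per length, ENSGALG00000010293 was the second highest member, at 4953 ± 1171 RPKM in the laying hens, after ENSGALG00000019551 at 5420 ± 1996 RPKM (SD, n = 3 each), and these neighbours in the order did not differ beyond their spread.

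Within the laying hens, 8 members differed more than 3 times between the lowest and the highest share, as did 16.3% of all tested genes, and 5 of them belonged to the 16 genes. The widest was ENSGALG00000006666, on chromosome 20, at 0.384%, 0.141% and 1.66% in laying hens 1, 2 and 3, compared with 0.813%, 0.506% and 0.0623% in non-laying hens 1, 2 and 3. Laying hen 3 was 11.7 times above laying hen 2 and above every other hen. ENSGALG00000036447, on chromosome 1, shared the pattern at 0.0613%, 0.0403% and 0.331% in the laying hens and 0.267%, 0.244% and 0.00844% in the non-laying hens. The opposite was seen for ENSGALG00000009621, on chromosome 14, one of the 60 others. It was at 0.275%, 0.386% and 0.0558% in the laying hens and at 0.307%, 0.162% and 0.537% in the non-laying hens, so laying hen 3 was the lowest of all and non-laying hen 3 the highest. For these genes the range over the laying hens exceeded the difference between the group means.

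**Figure D4:**
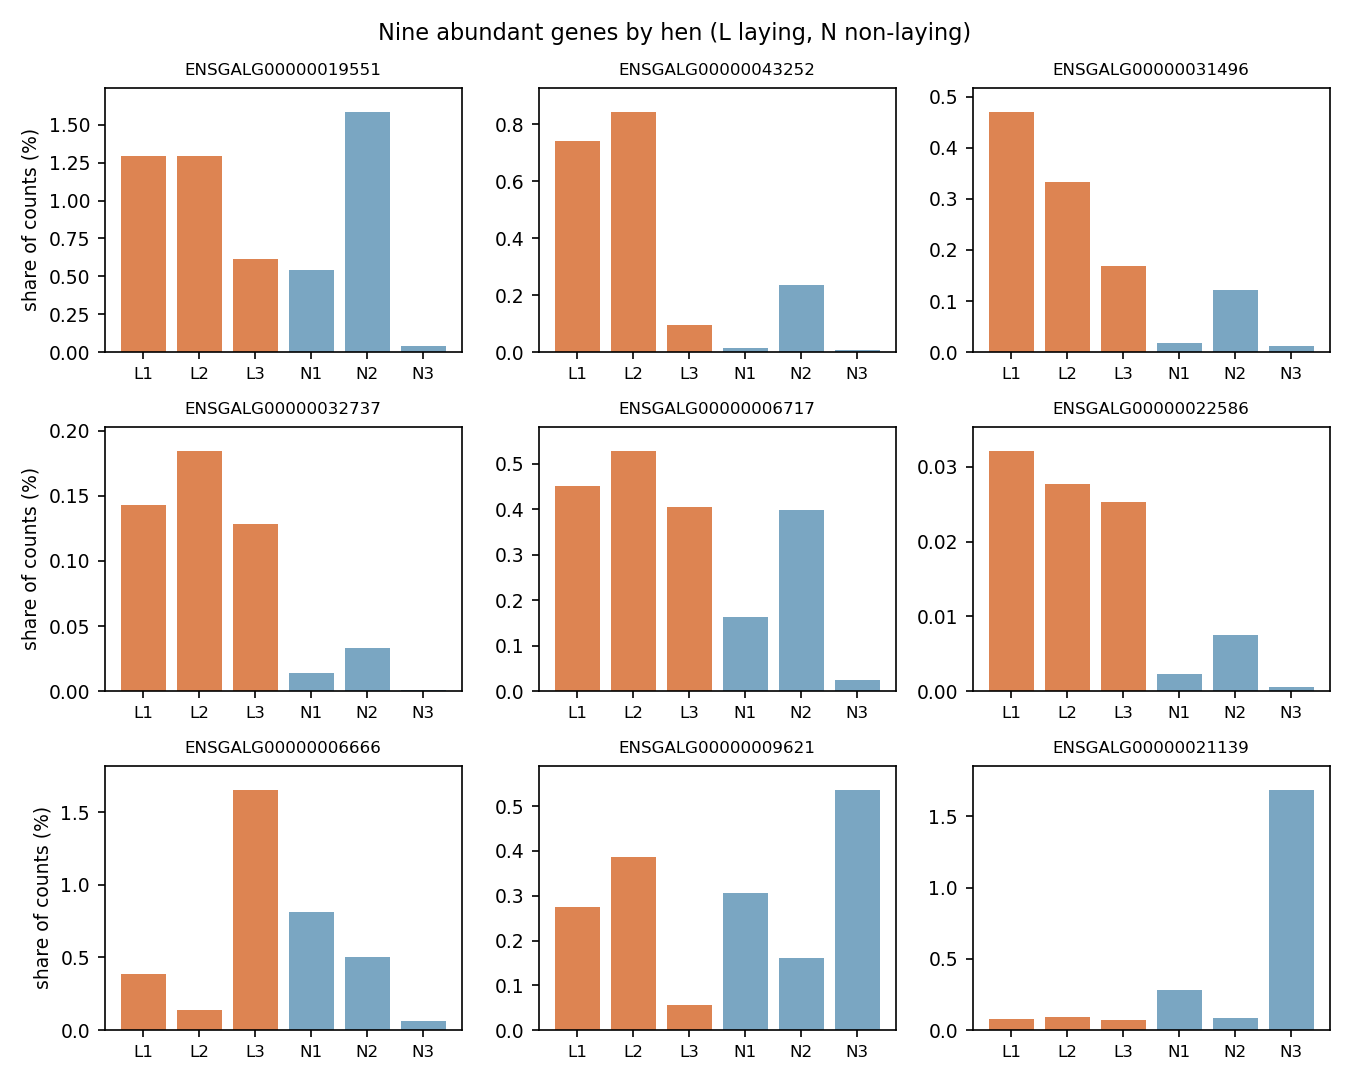
Share of counts in percent by hen for 9 members, with laying hens L1 to L3 in orange and non-laying hens N1 to N3 in blue, and with a separate vertical axis from 0 for each gene. ENSGALG00000031496, ENSGALG00000032737, ENSGALG00000006717 and ENSGALG00000022586 are higher in every laying hen, ENSGALG00000006666 peaks in laying hen 3 at 1.66%, and ENSGALG00000021139 peaks in non-laying hen 3 at 1.69%.

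The next set was made up of 10 members within 28 consecutive rows of the table, between genes on chromosomes 33 and Z (MYO1A and HAUS1), so that no chromosome can be given for them. The lengths of 7 of the 10 equalled, base for base and in the same order along the rows, those of protein-coding genes of the mitochondrial genome in the RefSeq table (GRCg7b), which has 13 such genes. No table used here pairs the identifiers, so whether the run is mitochondrial RNA was not settled, and a part of cell content or RNA quality in its share was not tested. Of the other rows in this run, 3 had counts without reaching the limit and 15 had at most 1 count in any hen. The 10 genes held 1.67%, 1.53% and 1.74% of all counts in laying hens 1, 2 and 3, compared with 3.81%, 3.25% and 3.54% in non-laying hens 1, 2 and 3. Every one of the 10 was higher by share in every non-laying hen, by 1.75 to 2.46 times in the means. Since 83% of all tested genes were also higher by share in every non-laying hen, this direction does not set the run apart. Outside the 6 excluded genes the sums overlapped, at 6.62%, 4.92% and 5.77% in the laying hens and 5.58%, 6.44% and 3.68% in the non-laying hens. Log2 fold changes on TMM-scaled libraries lay between 0.39 and 0.88.

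The 10 genes kept nearly the same proportions to each other in all hens. Counts of 3 of them, ENSGALG00000032142 included, were not whole in 5 or 6 libraries, so their levels are uncertain. ENSGALG00000032142, the highest of them by share, made up 27.7%, 26.1% and 26.1% of the run's counts in laying hens 1, 2 and 3, compared with 25.8%, 26.8% and 25.8% in non-laying hens 1, 2 and 3. ENSGALG00000035334, the highest by RPKM, made up 14.0%, 14.6% and 15.7% in the laying hens and 16.7%, 15.7% and 18.3% in the non-laying hens. The least steady, ENSGALG00000032079, was at 9.79%, 10.7% and 9.52% in the laying hens and 9.70%, 9.46% and 7.42% in the non-laying hens. Between the highest and the lowest hen, a gene's part of the run varied by 1.07 to 1.44 times. Over the laying hens alone, the shares of these genes varied by a median of 1.14 times, against 1.99 times for the 16 genes and 1.63 times for the 60 others. By share of all counts, the run was thus the steadiest of the 3 sets within the laying hens, as a description of these libraries. Outside the 6 excluded genes, its sum was 5.77% ± 0.849 over the laying hens (SD, n = 3). The 60 others had 10.5% ± 0.318 and the 16 genes 16.4% ± 2.74 on that scale. The run was therefore not the steadiest set there, and its rank depended on the denominator.

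**Figure D5:**
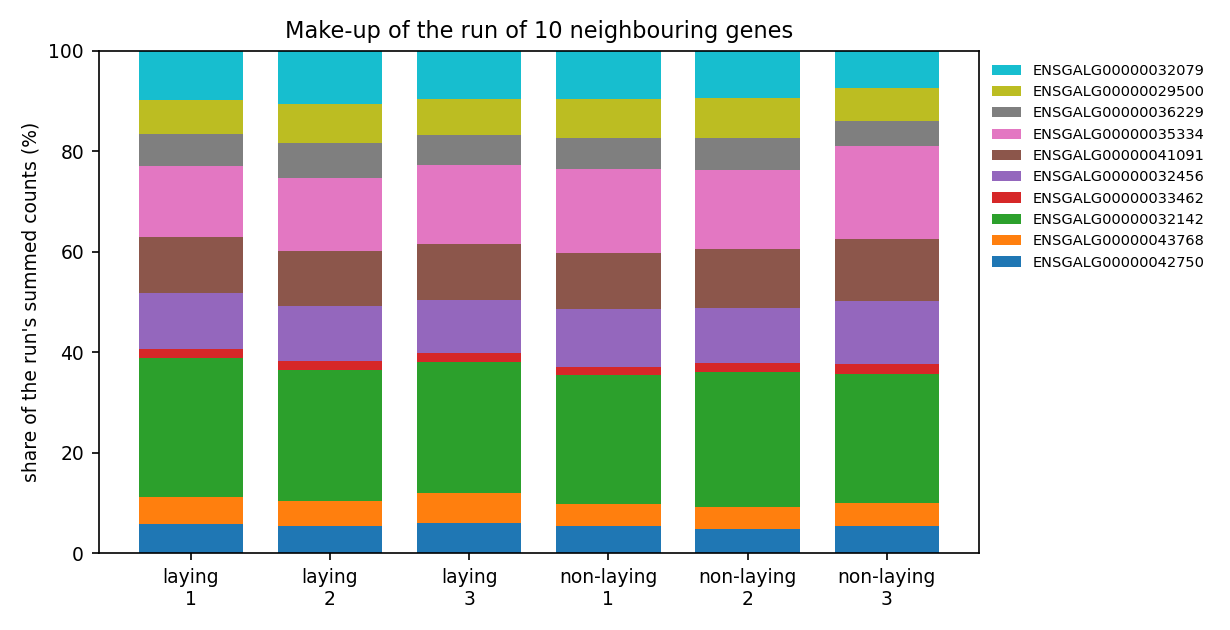
Part of the run's summed counts, in percent, taken by each of its 10 genes in each hen. The layers are of similar height in all 6 hens, such as 25.8% to 27.7% for ENSGALG00000032142, although the run as a whole took 1.53% to 1.74% of all counts in the laying hens and 3.25% to 3.81% in the non-laying hens.

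The 60 others had mean shares in the non-laying hens that were 1.26 to 8.71 times those in the laying hens, with a median of 2.38. In 48 of them, or 80%, every laying hen was below every non-laying hen by share, beside 83% of all tested genes. By share 42 of them, or 70%, were highest in non-laying hen 3 and lowest in hen 2, beside 76.2% of all tested genes, so both shares were near or under the background. ENSGALG00000015917, on chromosome 3, had the highest mean laying share of them, at 0.173%, 0.244% and 0.31% in laying hens 1, 2 and 3, compared with 0.528%, 0.365% and 0.77% in non-laying hens 1, 2 and 3. By TMM-scaled CPM 56 of the 60 had a log2 fold change above 0, with a median of 0.45, so the direction by share and that by scaled CPM were opposite for most of them.

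The members with the lowest log2 fold changes were ENSGALG00000021139 at -0.90 ± 0.72 and ENSGALG00000033212 at -0.41 ± 0.47 (SE), neither of them called. ENSGALG00000021139, on chromosome 15 between MYO1H and GGT1, was at 0.0764%, 0.0893% and 0.0698% in laying hens 1, 2 and 3, compared with 0.28%, 0.0836% and 1.69% in non-laying hens 1, 2 and 3. Non-laying hen 2 was within the laying range and hen 3 was far above it. This hen decided the sign, since the log2 fold change was 0.31 without it, and the counts of this gene were not whole in 5 libraries. ENSGALG00000033212, on chromosome 5 between AK7 and ASPG, was at 0.0254%, 0.0588% and 0.103% in the laying hens and at 0.3%, 0.147% and 0.389% in the non-laying hens. Its groups did not overlap by share, with means 4.45-fold apart.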

How the data were processed

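Magnum RNA of 3 laying and 3 non-laying hens was analysed. Reads were filtered by the authors in Prinseq, and alignment to Galgal 5.0 and counting against Ensembl release 94 were done in Array Studio version 10. They deposited estimated counts (expected counts), not normalized. Between 5.32% and 7.67% of a library's values were not whole (tolerance 0.01). The authors also deposited RPKM, which corrects counts for gene length and summed counts. From the authors' deposited table of 540 genes, other values used were coordinates and names. Its fold changes, p-values and group signals were not used. Unmapped sample columns numbered 0.

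Shares are a gene's counts over the library's summed counts. Counts were rounded, filtered by filterByExpr, scaled by TMM (factors 0.4449 to 2.94) and compared on all genes by edgeR's quasi-likelihood test (version 4.0.16, R 4.3.3, two-sided) with Benjamini-Hochberg adjustment. P-values set the difference between the groups against the spread between hens within them. Figures and shares were made with Python 3.11.15, pandas 2.3.3 and matplotlib 3.10.9. Wilson intervals (95%) cover counting error only. The SE of a log2 fold change was its absolute value divided by the square root of the test's F statistic.

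The members and lists were chosen with earlier results of these data known. Genes to be named were members with a symbol and, without one, the 2 highest and 2 lowest by fold change. Others were chosen after their values were seen. Alternatives were DESeq2's size factors, total counts, scaling without the 20 most abundant genes, DESeq2 1.42.0, limma 3.58.1 on log2 RPKM, other filters, limits and denominators, a replicate block and each hen left out. The numbers of the hens were not used to pair them.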

Additional observations from a re-analysis of the deposited data

How the results depend on the processing

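The number of members depended on the limit and the denominator. It was 86 as reported, 253 at a limit of 0.01%, 30 at 0.05%, 139 by summed RPKM and 519 by counts outside the 6 excluded genes. The summed share in the laying hens became 12.4%, 7.21%, 14.4% and 51.8% in these settings and 9.80% with the authors' genes kept, and that in the non-laying hens 21.8%, 8.79%, 26.7% and 41.2%. Members at the limit in every non-laying hen, 78 of 86 as reported, numbered 246 of 253, 22 of 30, 128 of 139 and 410 of 519. With 1 laying hen left out of the rule, the sums ranged from 9.42% to 10.4% in the laying and from 13.6% to 15.8% in the non-laying hens. Members in the order of the most abundant gene over the non-laying hens, 12 by share, were 50 by TMM-scaled CPM and 37 by counts outside the 6 genes. The members' median log2 fold change of 0.61 was -1.11 on total counts and -1.06 by limma on log2 RPKM with 1 or 0.1 added. It kept its sign in the other settings, at 0.42 to 0.76 with 1 hen left out. Genes called over the whole table, 623, were 939 without a limit on the fold change, 7896 on total counts, 1008 by DESeq2, 3626 and 7033 by limma with 1 and 0.1 added, and 16 to 639 with 1 hen left out (20 without laying hen 1, 16 without laying hen 2 and 285 without non-laying hen 1). With a replicate block, which pairs hens only by number, 397 genes and 0 members were called. Deviations of same-numbered hens had correlations of 0.179, -0.065 and 0.026, so the numbers share no pairing seen in the data. Members called ranged from 0 to 11 over the settings, the 11 (12.8% of the members) on total counts, where 63.2% of all tested genes were called. For the log2 fold changes of 9 members named in the text, 35 of 135 values under other settings were counted as changed, and the causes were not tested. For members not called, a change was a difference from the reported value beyond the spread between laying hens. For ENSGALG00000022586, the member called, only a lost call was counted. Its values of 3.04 on total counts and 6.13 without non-laying hen 2, against 4.34 as reported, were therefore not among the 35. Each group had 3 hens, and 12 members with counts not whole in 5 or 6 libraries have uncertain levels.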
